A study of Mus musculus with 8 samples.

Results

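The mouse VH9 family of immunoglobulin heavy-chain variable segments, also called VGAM3.8, was followed in pro-B cells that lacked Setd2 and in control pro-B cells. Its members were all genes whose name begins with IGHV9 in the deposited segment counts, which are IGHV9-1, IGHV9-2, IGHV9-3 and IGHV9-4, or 4 of 159 VH genes with a read. Assembled heavy-chain CDR3 sequences were assigned to the family where every listed V gene belonged to it, which gave 117 IGHV9 clonotypes among 3882 complete clonotypes, 2867 of which had V genes of a single family. The family was chosen by its share of VH reads, which separated the knockouts from the controls in these same samples, so the knockout and control values of its reads and clonotypes are descriptions without a test.

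The 8 samples came from bone marrow pro-B cells of untreated mice at 8 weeks of age, sorted as B220-positive and Cd43-positive cells without IgM or CD25, and they were sequenced as poly-A RNA with 75-base reads in a single batch. The groups were 4 Setd2 knockouts and 4 controls. The labels give neither the strain, the way Setd2 was deleted, the genotype of the controls, nor the animal behind each sample. Setd2 RNA was not analysed here. Heavy-chain locus reads ran from 12102 to 100600 in knockouts and from 64488 to 89908 in controls, and VH reads from 1637 to 56542 in knockouts and from 35505 to 53071 in controls. Knockout 3 was the shallowest library, with 13.5% of its locus reads in VH genes against 43.4% to 59.4% in the other 7 samples.

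Immunoglobulin heavy chains are built in pro-B cells when the RAG recombinase joins a D to a J segment and then a VH segment to the DJ unit. VH families near the D segments can be reached without large-scale folding of the locus, while families in the distal part depend on contraction of the locus. The IGHV9 genes lie in the intermediate part, interspersed with genes of other small families. Setd2 encodes the methyltransferase that trimethylates lysine 36 of histone H3 over transcribed genes.

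On mm10, all 4 genes are on the minus strand of chromosome 12. The counted intervals were chr12:114093928-114094221 for IGHV9-1, chr12:114109001-114109430 for IGHV9-2, chr12:114140692-114141122 for IGHV9-3 and chr12:114299961-114300254 for IGHV9-4. Those of IGHV9-1 and IGHV9-4 held only the 294 bases of the V exon after the leader. Those of IGHV9-2 and IGHV9-3 also held the leader and the intron, with 351 coding bases each. The genes lay 664, 679, 711 and 870 kb from IGHJ1 and were numbers 38, 39, 41 and 50 of the 159 VH genes counted from the J segments. The V bases after the leader are printed because the similarity of the genes sets how far their reads can be told apart. They are from the GENCODE M21 transcripts (GRCm38). They run from the first base after the leader to the last germline V base of the CDR3, with capitals at every base that differs from IGHV9-3:
IGHV9-1: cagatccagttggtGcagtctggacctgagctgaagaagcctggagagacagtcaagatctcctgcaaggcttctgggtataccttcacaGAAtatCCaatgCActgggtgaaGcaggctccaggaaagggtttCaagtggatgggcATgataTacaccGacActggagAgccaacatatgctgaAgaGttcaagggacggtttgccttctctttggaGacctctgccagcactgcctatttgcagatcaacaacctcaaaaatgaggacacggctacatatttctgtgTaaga
IGHV9-2: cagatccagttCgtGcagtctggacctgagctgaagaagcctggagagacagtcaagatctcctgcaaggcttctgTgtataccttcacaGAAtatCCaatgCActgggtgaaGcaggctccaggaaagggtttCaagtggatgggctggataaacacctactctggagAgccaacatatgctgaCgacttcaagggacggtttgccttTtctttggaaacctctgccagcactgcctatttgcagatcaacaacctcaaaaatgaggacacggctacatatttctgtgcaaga
IGHV9-3: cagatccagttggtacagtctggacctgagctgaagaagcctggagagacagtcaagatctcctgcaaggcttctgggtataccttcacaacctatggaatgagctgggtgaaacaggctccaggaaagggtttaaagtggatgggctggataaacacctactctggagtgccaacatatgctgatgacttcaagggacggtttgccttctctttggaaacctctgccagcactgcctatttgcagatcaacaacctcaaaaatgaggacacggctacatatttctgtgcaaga
IGHV9-4: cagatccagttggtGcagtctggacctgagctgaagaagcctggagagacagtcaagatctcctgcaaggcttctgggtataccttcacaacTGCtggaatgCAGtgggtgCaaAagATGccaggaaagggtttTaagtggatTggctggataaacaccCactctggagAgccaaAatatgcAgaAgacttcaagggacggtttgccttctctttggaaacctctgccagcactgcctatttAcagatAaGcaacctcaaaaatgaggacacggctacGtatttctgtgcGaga

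IGHV9-1 and IGHV9-2 were the closest pair, with 95.9% identity and 12 different bases. IGHV9-2 and IGHV9-3 shared 94.9% and differed at 15 bases. IGHV9-1 and IGHV9-4 were the least alike, at 89.5% and 31 bases. IGHV9-4 differed from IGHV9-3 at 24 bases. The capitals GAA and CC in the first part of the sequence are common to IGHV9-1 and IGHV9-2 and are not found at those places in IGHV9-4. Each printed sequence has 220 windows of 75 bases, the length of a read. Of these, 16 of IGHV9-1, 10 of IGHV9-2, 13 of IGHV9-3 and 18 of IGHV9-4 were identical to a window of another VH gene. In each case it was an IGHV9 gene. Reads from those windows cannot be assigned to a single gene, and the values of single members are uncertain to at least that extent. Only identical windows were counted, so reads with mismatches are not covered.

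Reads of the family made up a smaller share of VH reads in every knockout than in any control. The family held 272, 415, 14 and 675 reads in knockouts 1 to 4, against 1074, 1886, 2348 and 2714 reads in controls 1 to 4. As a share of VH reads this was 1.07%, 1.86%, 0.855% and 1.19% in knockouts 1 to 4, against 2.75%, 3.55%, 6.61% and 5.999% in controls 1 to 4. The groups did not overlap, and controls 3 and 4 stood above controls 1 and 2. The mean was 1.24% ± 0.432 in knockouts and 4.73% ± 1.87 in controls (SD, n = 4 each). With 14 reads, the share in knockout 3 had a 95% Wilson interval of 0.510% to 1.43%, which covers counting error only. The edgeR log2 fold of knockout over control was −1.92 (SE 0.55), on the scale of the share of VH reads, and −1.79 (SE 0.59) without knockout 3. In bulk samples, fewer cells that use a gene and less RNA per cell cannot be told apart.

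Most VH genes lay below 0 on this scale, on which all shares of a sample add up to a fixed total. The most read VH gene held 16.3% of VH reads in knockout 1 (IGHV2-2) and 27.6% in knockout 4 (IGHV5-9-1), and at most 7.13% in any control. The median log2 fold of the 130 VH genes with at least 10 reads was −0.82, and the IGHV9 family lay 1.10 log2 units under it (difference −1.10). Here and below, such differences set a family total against single genes. Gene by gene, the median of the 4 members was −1.72. With TMM scaling, which centres on the bulk of the genes, the median was 0.18 and the family was at −0.72 (SE 0.59), a difference of −0.89 from that median. With DESeq2 size factors the values were 0.20, −0.72 and −0.92.

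Other scales keep the reads by which the family was chosen, so their values are descriptions too. The family was also lower in knockouts per heavy-chain locus reads, which include the VH reads, and per reads of the constant region IGHM. It held 4.98, 10.03, 1.16 and 6.71 reads per 1000 heavy-chain locus reads in knockouts 1 to 4, against 11.9, 21.1, 36.4 and 35.6 in controls 1 to 4. Per 1000 reads of IGHM, the constant region of the first heavy chain a B-lineage cell makes, it held 14.3, 38.6, 1.48 and 28.3 in knockouts 1 to 4, against 46.1, 128, 172 and 193 in controls 1 to 4. The groups did not overlap on either scale. The same held for 31.5% of the 130 VH genes per locus reads and for 42.3% per IGHM reads, and for 3 of the 15 families, or 20%, on each scale. The median VH gene had a log2 fold of −1.27 per locus reads and −1.88 per IGHM reads. The IGHV9 family, at −2.19 (SE 0.77) and −2.70 (SE 1.05), differed from these medians by −0.93 and −0.82.

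**Figure D1:**
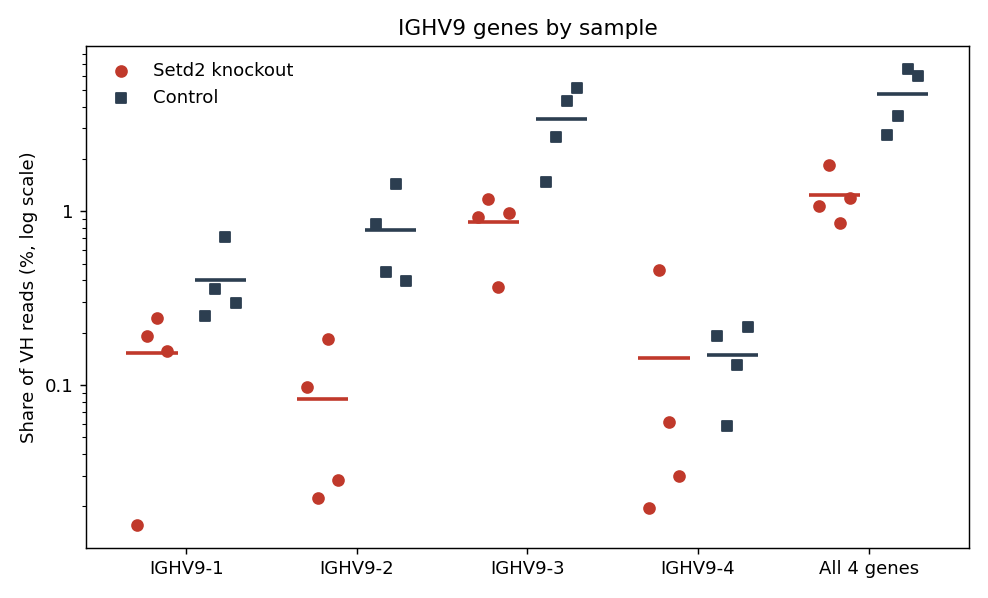
Share of VH reads (%, log scale) of each IGHV9 gene and of the 4 genes together, with Setd2 knockouts left (circles) and controls right (squares), replicates 1 to 4 from left to right in each group and the mean as a line. IGHV9-1, IGHV9-2, IGHV9-3 and the total have no overlap between the groups, while IGHV9-4 overlaps and has its highest value, 0.460%, in knockout 2.

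IGHV9-3 was the main gene of the family. It held 0.932%, 1.18%, 0.367% and 0.978% of VH reads in knockouts 1 to 4, against 1.47%, 2.69%, 4.33% and 5.09% in controls 1 to 4, so every knockout was below every control. Its log2 fold was −1.95 (SE 0.72) with VH reads as library size, and −0.66 with TMM scaling (SE 0.74) and with DESeq2 (SE 0.75), where it was smaller than its SE. It was the most read of all VH genes in control 3 and the second in control 4, while its rank among VH genes in knockouts 1 to 4 was 25, 21, 54 and 13. In control 1 it ranked 21, which is as low as in knockout 2.

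IGHV9-2 differed most in fold among the members. It held 0.0979%, 0.0224%, 0.183% and 0.0283% of VH reads in knockouts 1 to 4, against 0.845%, 0.448%, 1.44% and 0.396% in controls 1 to 4. The groups did not overlap, and the log2 fold was −3.54 (SE 0.93). Each knockout value rests on few reads, namely 25, 5, 3 and 16, against 330, 238, 512 and 179 in controls 1 to 4.

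IGHV9-1, the member nearest to the J segments, held 0.0157%, 0.192%, 0.244% and 0.157% of VH reads in knockouts 1 to 4, against 0.248%, 0.358%, 0.715% and 0.296% in controls 1 to 4. The groups were separated only by the narrow gap between knockout 3, which had 4 reads of this gene, and control 1. The log2 fold was −1.49 (SE 0.84) with VH reads as library size and −0.26 (SE 0.79) with TMM scaling.

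IGHV9-4, the member farthest from the J segments, showed no separation. It held 0.0196%, 0.460%, 0.0611% and 0.0301% of VH reads in knockouts 1 to 4, against 0.192%, 0.0584%, 0.130% and 0.217% in controls 1 to 4. Knockout 2 was above every control, and the other 3 knockouts were near or below the lowest control. The log2 fold was 0.00 (SE 0.92), and −2.34 (SE 0.89) without knockout 2. Per 100 coding bases and 100000 VH reads, IGHV9-3 averaged 246 ± 99.4 reads in knockouts and 967 ± 464 in controls, ahead of the other members in both groups. On this scale IGHV9-2 averaged 23.6 ± 21.4 reads in knockouts and 223 ± 138 in controls, and IGHV9-1 averaged 51.8 ± 33.3 in knockouts and 138 ± 72.1 in controls. IGHV9-4 averaged 48.6 ± 72.3 reads in knockouts and 50.7 ± 24.1 in controls (SD, n = 4 each). In controls the order of means was IGHV9-3, IGHV9-2, IGHV9-1 and IGHV9-4, and IGHV9-2 and IGHV9-1 were within each other's spread.

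The makeup of the family varied between samples in both groups. IGHV9-3 made up 87.5%, 63.6%, 42.9% and 81.9% of IGHV9 reads in knockouts 1 to 4, against 53.3%, 75.7%, 65.4% and 84.9% in controls 1 to 4. IGHV9-2 made up 9.19%, 1.20%, 21.4% and 2.37% in knockouts 1 to 4, against 30.7%, 12.6%, 21.8% and 6.60% in controls 1 to 4. Both shares overlapped between the groups. IGHV9-4 reached 24.8% of IGHV9 reads in knockout 2.

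Set against all VH genes, a lower share in every knockout was also found for genes of other families. Of the 130 VH genes, 32, or 24.6%, had every knockout below every control, and 0% had every knockout above every control, against 3 of the 4 IGHV9 genes below. A log2 fold under −1 was found for 47.7% of the 130 genes and for 3 of the 4 members, whose median log2 fold was −1.72. The rule used this contrast, so the members' counts are a description. With TMM scaling, 10 genes were below and 5 above without overlap, and IGHV9-2 was the only member among them. Among the 15 VH families, IGHV9 and IGHV13, or 13.3%, had every knockout below every control. IGHV13, a single gene here, held 0.00535% ± 0.00852 of VH reads in knockouts and 0.137% ± 0.0692 in controls. By reads, IGHV9 was family number 8, 6, 12 and 6 in knockouts 1 to 4, against 8, 6, 3 and 3 in controls 1 to 4.

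**Figure D2:**
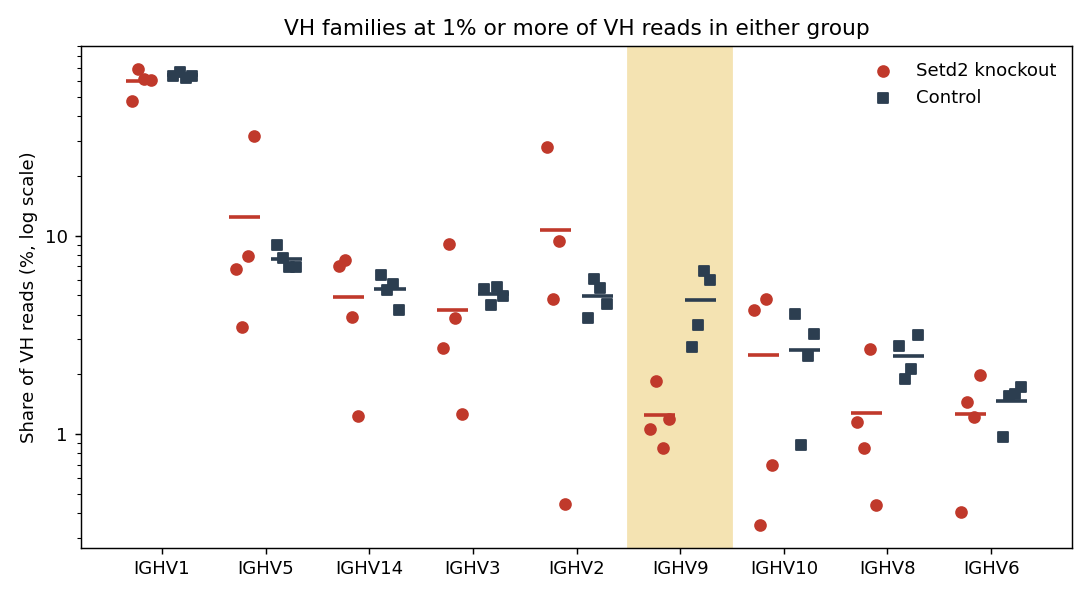
Share of VH reads (%, log scale) of the VH families with a mean of 1% or more in either group, ordered by control mean, with Setd2 knockouts left (circles), controls right (squares) and means as lines. In IGHV9 (shaded) the knockouts lie between 0.855% and 1.86% and the controls between 2.75% and 6.61%, and the other families drawn overlap between the groups.

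The genes around the members did not share one pattern. IGHV14-3 and IGHV7-3 are the nearest VH genes of other families with at least 10 reads on either side of IGHV9-1, IGHV9-2 and IGHV9-3. IGHV14-3, on the J side, held 0.300% ± 0.241 of VH reads in knockouts and 0.912% ± 0.392 in controls (SD, n = 4 each), with a log2 fold of −1.70 (SE 0.84) and with knockout 3 inside the control range. IGHV7-3, which lies 12.5 kb beyond IGHV9-3, held 0.587% ± 0.423 in knockouts and 0.771% ± 0.254 in controls, with a log2 fold of −0.43 (SE 0.79). IGHV3-6, which lies 11.8 kb from IGHV9-4 on the J side, held 4.01% ± 3.38 in knockouts and 3.73% ± 0.292 in controls, with a log2 fold of 0.11 (SE 0.71). IGHV3-7, on the far side of IGHV9-4, had 20 reads in all 8 samples together, too few to describe. None of these 4 neighbours (0 of 4) had all knockouts below all controls. Among the 29 tested genes of the other intermediate families, 6 had every knockout below every control and 12 had a log2 fold under −1, with a median of −0.75.

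**Figure D3:**
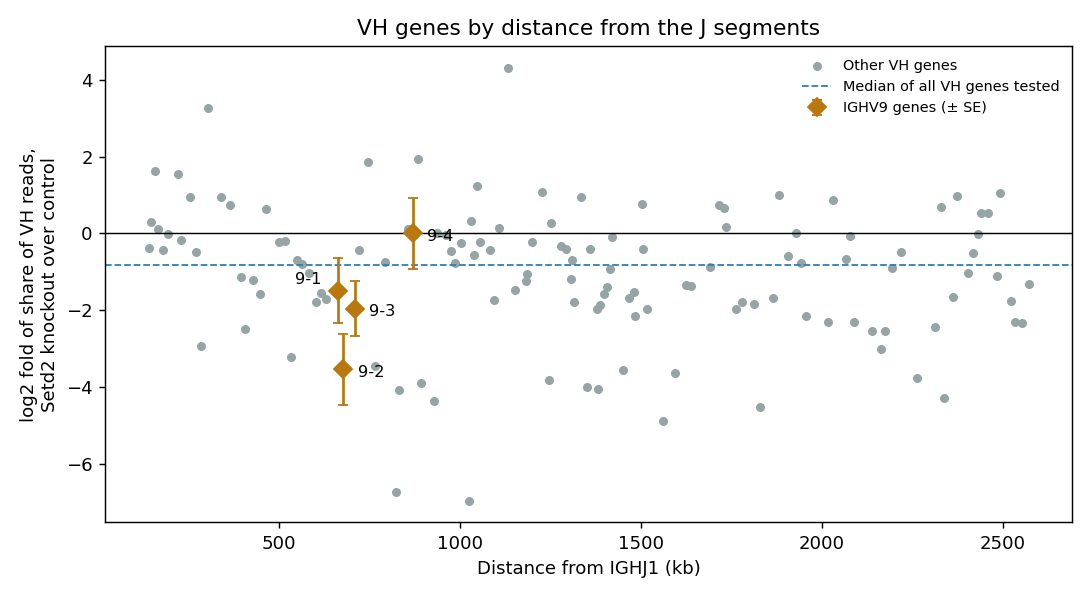
log2 fold of the share of VH reads, Setd2 knockout over control, for the 130 VH genes with at least 10 reads, by distance from IGHJ1 (kb), with the IGHV9 genes as diamonds (± SE) and the median of all genes, −0.82, as a dashed line. IGHV9-1, IGHV9-2 and IGHV9-3 lie below the median and IGHV9-4 lies at 0, and genes on both sides of the median are found at the same distances.

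The VH genes whose share over the 8 samples was most like that of the family were IGHV1-70, IGHV1-62-1, IGHV1-28, IGHV1-31 and IGHV8-11, all of the distal families. Likeness was the root mean square distance over 8 samples between log2 shares, with 0.01% added, centred on the control mean, and it was 0.456 to 0.572 for these genes against a median of 1.35 over 126 genes. IGHV1-62-1 held 0.0418% of VH reads in knockouts and 0.170% in controls on average, and IGHV1-31 held 0.0870% in knockouts and 0.267% in controls. IGHV1-70, IGHV1-28 and IGHV8-11 averaged at most 0.0411% in either group. The added 0.01% is near the level of the rarest, so their likeness is partly set by it.

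The family was then counted by distinct rearrangements instead of reads, which gives each assembled junction the same weight. IGHV9 clonotypes numbered 4, 7, 1 and 5 in knockouts 1 to 4, against 18, 27, 30 and 25 in controls 1 to 4, out of 741 complete clonotypes in knockouts and 3141 in controls. Of the clonotypes with a single V family, IGHV9 made up 2.94%, 3.65%, 1.96% and 2.76% in knockouts 1 to 4, against 2.97%, 4.65%, 5.87% and 4.11% in controls 1 to 4. The groups overlapped, since knockout 2 was above control 1 and knockout 1 was close to it. The means were 2.83% ± 0.692 in knockouts and 4.398% ± 1.20 in controls (SD, n = 4 each), a difference of −1.57 percentage points. The 95% Wilson intervals of the knockout shares were wide, such as 0.347% to 10.3% for the single clonotype of knockout 3.

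The share of segment reads and the share of clonotypes differed in their relation to each other. The read share divided by the clonotype share was 0.362, 0.509, 0.436 and 0.432 in knockouts 1 to 4, against 0.926, 0.765, 1.13 and 1.46 in controls 1 to 4, without overlap. The numerator is the measure by which the family was chosen, so nothing is read from this separation. Of the 7 families with a clonotype in every sample, IGHV9 was the only one with every knockout below every control in this ratio, or 14.3%, and 0% had every knockout above. Segment reads per IGHV9 clonotype were 68.0, 59.3, 14.0 and 135 in knockouts 1 to 4, against 59.7, 69.9, 78.3 and 109 in controls 1 to 4, and these overlapped. Over all VH genes, segment reads per complete clonotype of a single family were 188, 117, 32.1 and 312 in knockouts 1 to 4, against 64.4, 91.3, 69.5 and 74.3 in controls 1 to 4. Knockouts 1, 2 and 4 were above every control in that ratio, and knockout 3 was below. Weighted by the reads of their contigs, IGHV9 clonotypes made up 4.27% ± 2.09 in knockouts and 5.53% ± 2.88 in controls, which overlapped.

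**Figure D4:**
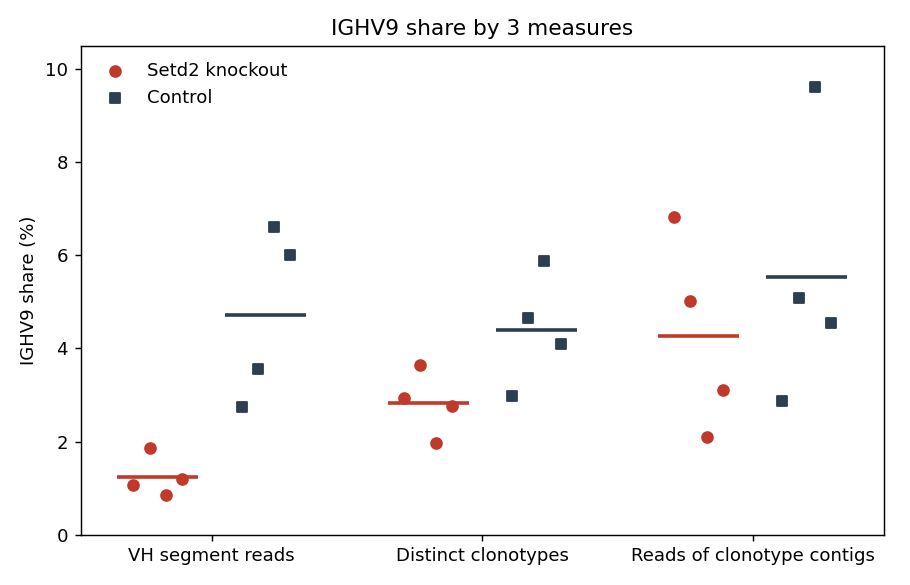
IGHV9 share (%) by VH segment reads, by distinct clonotypes and by reads of clonotype contigs, with Setd2 knockouts left (circles), controls right (squares), replicates 1 to 4 from left to right and means as lines. The groups are apart for segment reads, at 0.855% to 1.86% in knockouts and 2.75% to 6.61% in controls, and overlap for the other 2 measures.

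The clonotypes rarely named a single member. A list of IGHV9-1, IGHV9-2, IGHV9-3 and 3 further family names was given for 61 of the 117, and 49 listed IGHV9-4 as well. A single gene was given for 5 clonotypes, in each case IGHV9-4, with 2 in knockouts and 3 in controls. The germline bases that open the CDR3 separate some members: they are tgtgtaaga in IGHV9-1, tgtgcaaga in IGHV9-2 and IGHV9-3, and tgtgcgaga in IGHV9-4. The start of IGHV9-2 and IGHV9-3 opened 11 clonotypes of the knockouts and 64 of the controls. The start of IGHV9-1 opened 2 in knockouts and 4 in controls, and that of IGHV9-4 opened 2 in knockouts and 5 in controls. Genes of other names that share these starts cannot be told apart from them. The remaining clonotypes had none of these starts, which may be trimmed, altered or those of listed genes whose starts were not compared. A lone base difference from the nearest member start, followed by at least 3 matching bases, was found in 0 of 17 knockout and 10 of 100 control clonotypes. Differences in the last 3 of the 9 bases and further differences were not counted. These counts pool the clonotypes of all samples of a group, so the groups are not compared.

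The 3 IGHV9 junctions with most reads in each group are printed, 5′ to 3′, because they carry a large part of the family's assembled reads. Lower case at the start matches the germline V sequence of a member, and lower case at the end is germline J sequence. Capitals are the bases between them, from D segments and added nucleotides, and any V base that differs from the nearest member start:
Knockout 1: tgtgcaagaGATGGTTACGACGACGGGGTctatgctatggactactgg
Knockout 2: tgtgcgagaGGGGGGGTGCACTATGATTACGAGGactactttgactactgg
Knockout 4: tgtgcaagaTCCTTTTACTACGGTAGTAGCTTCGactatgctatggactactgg
Control 3: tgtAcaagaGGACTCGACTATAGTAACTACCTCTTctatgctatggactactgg
Control 4: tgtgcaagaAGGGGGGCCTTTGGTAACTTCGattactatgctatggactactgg
Control 2: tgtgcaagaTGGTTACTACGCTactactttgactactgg

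The junction of knockout 1 had 38 reads, joined IGHJ4 and made up 65.5% of the IGHV9 contig reads of that sample. That of knockout 2 had 28 reads and 41.2%, joined IGHJ2 and was assigned to IGHV9-4 alone, in the sample with the highest IGHV9-4 read share. That of knockout 4 had 18 reads and 47.4% and joined IGHJ4. A second IGHJ4 junction of 15 reads in knockout 4 differed from it by a single base, and the pair held 33 of 38 IGHV9 contig reads, or 86.8%. In controls, the junction of control 3 had 91 reads and 48.1% and joined IGHJ4. It differed from the nearest member start by G4A, counted from the first base of the CDR3. The junctions of controls 4 and 2 had 17 and 15 reads, or 19.5% and 14.2% of the IGHV9 contig reads of their samples. Those of knockouts 2 and 4 and of control 3 were assembled with IGHA, and that of control 2 with IGHG2B. These shares come from 38 to 68 contig reads in the 3 knockouts and 87 to 189 in the 3 controls named.

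Across the family, all 117 CDR3 nucleotide sequences were distinct and 0 were shared between samples, while 2 amino acid sequences were. The CDR3 was 7 to 18 amino acids long, with a median of 16 in knockouts and 14 in controls. A D segment matched over at least 8 bases in 71 of 117, or 60.7%, with 27 of D family 1, 36 of family 2, 1 of family 3 and 7 of family 4. A single read supported 33 clonotypes, 4 in knockouts and 29 in controls. Pairs of IGHV9 clonotypes that differed by a single base within a sample numbered 7, with 2 in knockouts and 5 in controls, and whether these are read errors was not tested. The pair of knockout 4 gave both of its IGHJ4 clonotypes among 3 with a listed J, and a pair of 16 and 16 reads in knockout 2 joined IGHJ1.

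IGHV9 clonotypes were compared with the other VH clonotypes of the same sample, a contrast the choice of the family did not use. The 7 samples with at least 3 IGHV9 clonotypes entered an exact two-sided sign-flip permutation test of 7 readouts, whose smallest possible p was 0.0156, with Benjamini-Hochberg adjustment over the 7 readouts. None of the 7 readouts passed an adjusted p of 0.05. IGHJ2, the J segment most used by other VH genes, was joined in 0%, 20% and 0% of IGHV9 clonotypes in knockouts 1, 2 and 4 and in 33.3%, 53.3%, 42.9% and 18.2% in controls 1 to 4. Among other VH clonotypes it was joined in 33.96%, 38.3% and 46.8% in knockouts 1, 2 and 4 and in 51.0%, 45.7%, 45.9% and 43.3% in controls 1 to 4. The mean was 24.0% for IGHV9 against 43.5% for other VH genes, a difference of −19.6 ± 18.3 percentage points (SD, n = 7), lower in 6 of 7 samples (exact permutation p = 0.0469, adjusted p = 0.164). Reading J also from the end of the CDR3 was a definition added after seeing the data. With it, the difference was −17.9 points and lower in 7 of 7 samples (exact permutation p = 0.0156, adjusted p = 0.109). By that definition it was −32.0, −23.1 and −46.3 points in knockouts 1, 2 and 4. In controls 1 to 4 it was −16.9, −3.56, −1.58 and −2.21 points. A J was listed for 69 of the 117 clonotypes, with 3 to 5 per knockout entered, so a knockout share moves in large steps and a share of 0% sets no useful upper limit. In the 4 controls alone the difference by listed J was −9.53 points, where the smallest possible p is 0.125.

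The other readouts had smaller or more scattered differences. IGHJ4 was joined in 40.2% of IGHV9 and 24.3% of other VH clonotypes, a difference of 15.9 ± 24.8 points, higher in 5 of 7 samples (exact permutation p = 0.141, adjusted p = 0.246). The IGHJ4 difference was 9.67 points without knockout 4 and 5.57 points in the 4 controls alone. The mean CDR3 length was 14.0 amino acids for IGHV9 and 13.4 for other VH genes, a difference of 0.658 ± 0.951, higher in 5 of 7 (exact permutation p = 0.109, adjusted p = 0.246). With clonotypes of a sample and family that differ by a single base merged, a definition added after seeing the data, the length difference was 0.361 (exact permutation p = 0.5, adjusted p = 0.7). The log2 of the mean contig reads per clonotype was 0.42 ± 0.46 higher for IGHV9, in 6 of 7 samples (exact permutation p = 0.0313, adjusted p = 0.164). Without knockout 1 the difference was 0.28. By segment reads, IGHV9 had fewer reads per clonotype than all VH genes in every knockout and in controls 1 and 2. It had more in controls 3 and 4. IGHJ1 and IGHJ3 use differed by 1.46 and 2.28 points, with exact permutation p = 0.828 and 0.4375. The share of CDR3 sequences that begin with cysteine, alanine and arginine differed by 3.26 points (exact permutation p = 0.531).

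**Figure D5:**
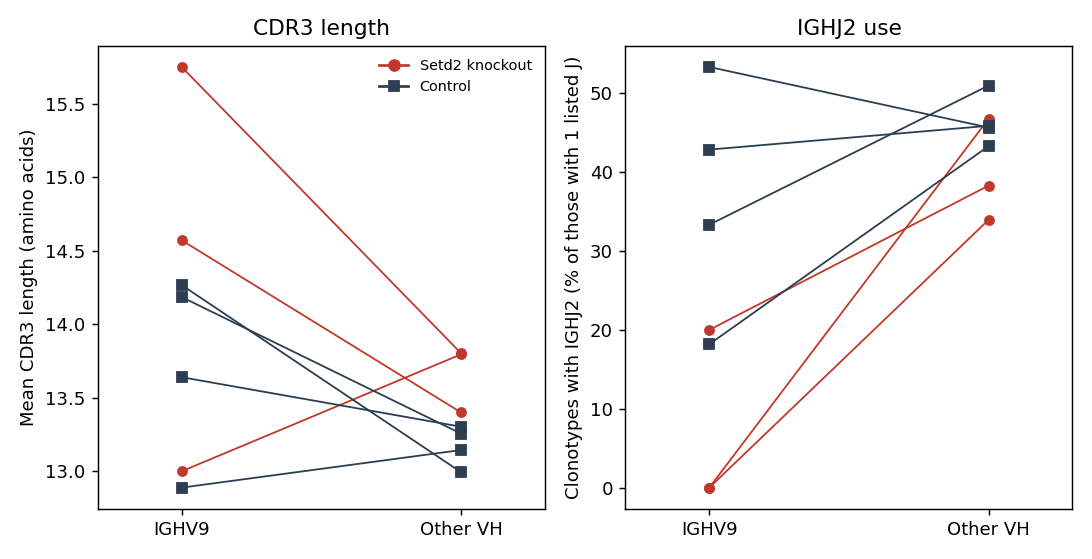
Mean CDR3 length (amino acids, left) and share of clonotypes joined to IGHJ2 (% of those with 1 listed J, right) for IGHV9 and for other VH clonotypes of the same sample, joined by a line, for 3 Setd2 knockouts (circles) and 4 controls (squares). IGHJ2 use was lower in IGHV9 in 6 of 7 samples and CDR3 length was higher in 5 of 7, and neither difference passed the adjusted threshold.

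The constant regions show that the libraries were not made of unswitched heavy chains alone. Switched constant regions (IGHG, IGHA and IGHE), which mark later B cells and plasma cells and not pro-B cells, made up 31.8%, 41.1%, 6.69% and 44.2% of constant-region reads in knockouts 1 to 4, against 52.6%, 57.6%, 51.0% and 52.8% in controls 1 to 4. IGHG alone made up 9.52%, 14.9%, 2.66% and 10.1% in knockouts 1 to 4, against 35.5%, 24.3%, 24.0% and 20.8% in controls 1 to 4. IGHM made up 55.4% to 92.7% in knockouts and 41.4% to 48.0% in controls, and IGHD 0.467% to 0.759% in knockouts and 0.651% to 0.977% in controls. Light-chain loci are rearranged mainly after the pro-B stage. Their constant and J segments had 3814 to 69414 reads in knockouts and 44367 to 61453 in controls. These raw counts were not scaled to depth, and they do not tell rearranged from unrearranged segments. Switched and IGHG shares did not overlap between the groups, in the same direction as the IGHV9 share, and their part in the result was not tested. Of the IGHV9 clonotypes, 25 had an assigned constant region. It was IGHA in all 5 of the knockouts. In the controls it was IGHA in 17 and IGHG in 3, and 0 were assigned to IGHM in either group. By sample, a constant region was assigned to 0% to 60% of IGHV9 clonotypes in knockouts and 4% to 30% in controls. Among other VH clonotypes it was assigned to 2% to 23.9% in knockouts and 10.7% to 21.7% in controls. Which constant regions those other clonotypes carried was not counted, so no excess of IGHA is shown. Whether the IGHA assignments are particular to IGHV9 was not tested.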

How the data were processed

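Reads were aligned with STAR 2.5.1 to mm10, per the submitters' processing notes, and TRUST was used for the receptor repertoire, per the labels' design text, with the version not given in the sources used here. The authors deposited whole-number read counts per gene segment and per assembled contig, with an expression score per clonotype that was not used. The deposited library size equals the reads of the locus, so whole-library depth is unknown. The members and lists were chosen with earlier results of these data known. Shares are of all VH reads. Log2 folds are from edgeR 4.0.16 (quasi-likelihood, R 4.3.3), with VH reads as library size. Genes were fitted over all VH genes with at least 10 reads. Families were fitted separately over the totals of the 15 families, without that filter. The SE of an edgeR fold is its absolute value divided by the square root of the quasi-likelihood F statistic. The fit was run on simulated counts with known folds. DESeq2 1.42.0, TMM scaling, other library sizes, the replicate block, other clonotype definitions and each replicate left out were alternatives. A clonotype is a complete CDR3 sequence. Named genes were the 4 members, the 5 most alike, the nearest neighbours and the 3 largest clonotypes per group. Within-sample tests used Python 3.11.15 and scipy 1.17.1. The labels name no animals, so p-values cover only sample-to-sample spread, which may be technical. Light-chain contigs were not used.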

Additional observations from a re-analysis of the deposited data

Results flagged for a closer look

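The IGHV9-4 share of VH reads in knockout 2, 0.460%, lay far from the other 3 knockouts, of which the nearest was knockout 3 at 0.0611%. The gap was 0.906 of the range of the 4 knockouts, above Dixon's critical value at 95%. Chance flags about 1 in 20 groups, and 24 groups were checked. Knockout 2 also held the largest clonotype assigned to IGHV9-4 alone, of 28 reads.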

How the results depend on the processing

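The log2 fold of the IGHV9 family was negative under all 14 alternatives, but its size depended on the scaling: −0.72 with TMM and with DESeq2, and −2.70 with IGHM reads as library size, which was chosen after seeing the data, against −1.92. Leaving out each replicate gave −2.18 to −1.72. The number of VH genes with every knockout below every control was 10 with TMM scaling in place of 32. With a replicate left out it was 34 to 43, but removing a sample cannot lower this count. IGHV9-4 turned negative with the replicate block (−1.39), locus reads (−0.15) or IGHM reads (−0.56) as library size, and with a replicate left out ran from −2.34 to 0.40, negative without knockout 2, control 2 or control 3. IGHV9-1, IGHV9-2 and IGHV9-3 kept their direction under every alternative run. The IGHJ3 difference turned to −0.112 points in controls alone and −1.38 with knockout 3 entered. The difference in CDR3 sequences that open with cysteine, alanine and arginine turned to −0.831 and −6.40, and ran from −0.112 to 5.14 with a replicate left out. The IGHJ1 difference of 1.46 points ran from −2.60 to 4.66 with a replicate left out, was 11.7 with knockout 3 entered and turned to −0.985 with clonotypes 1 base apart merged. With that merging, none of the 7 readouts passed, the IGHJ2 difference was −18.5 and the IGHJ4 difference 14.9 points, and the share of clonotypes differed by −1.96 percentage points. The cause was not tested. Replicate numbers share no stated source: deviations of same-numbered samples correlated at 0.0882 to 0.175 over genes, and 3 of 4 numbers correlated best with their own. With the replicate block the family was at −1.88 (SE 0.68). Knockout 3 rests on 14 IGHV9 reads and 1 clonotype.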

Other observations

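A further 67 clonotypes listed genes of families 9, 11 and 13 together, 11 in knockouts and 56 in controls, and were not counted as IGHV9. With them included, a definition added after seeing the data, the share of clonotypes was 4.98% ± 1.07 in knockouts and 6.71% ± 2.15 in controls (SD, n = 4 each), and the groups overlapped. IGHV9 contigs without a complete CDR3 numbered 13 in knockouts and 121 in controls. The pairs of IGHV9 clonotypes a single base apart included 1 of 16 and 16 reads in knockout 2 and 1 of 15 and 18 reads in knockout 4. In the controls, 1 pair had 3 and 11 reads and 1 had 1 and 13.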
